A study of Homo sapiens with 6 samples.

Results

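The ADAMTS proteinases and the TIMPs, their protein inhibitors, were followed in the RNA-Seq counts of mocetinostat- and DMSO-treated TC28a2 cells. The 10 genes were taken by gene name from the 60623 genes of the count table, and each name matched 1 row. They comprised 7 proteinase genes (*ADAMTS1*, *ADAMTS4*, *ADAMTS5*, *ADAMTS6*, *ADAMTS7*, *ADAMTS9*, and *ADAMTS12*) and 3 inhibitor genes (*TIMP1*, *TIMP2*, and *TIMP3*). All 6 samples were TC28a2 cells, an immortalized line of human chondrocytes, and each treatment group held 3 samples that the study describes as independent experiments. The treated group received 2 μM mocetinostat, an inhibitor that prefers the class I histone deacetylases, for 24 hours, and the control group received the solvent DMSO. Cells of 1 line cannot show how chondrocytes of different donors vary.

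ADAMTS proteinases are secreted zinc enzymes with thrombospondin motifs that cut proteoglycans and other matrix proteins. ADAMTS4 and ADAMTS5 are the best known aggrecanases, the enzymes that cleave aggrecan in the core protein and release its glycosaminoglycan-bearing part from cartilage. TIMPs bind the catalytic site of metalloproteinases, and TIMP3 is the TIMP that inhibits ADAMTS4 and ADAMTS5 well, whereas TIMP1 and TIMP2 act mainly on matrix metalloproteinases (MMPs). Loss of aggrecan is an early step of cartilage breakdown in osteoarthritis.

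Total counts per sample ranged from 4873426 to 11031132 with DMSO and from 1619344 to 5089542 with mocetinostat. Across the 13966 genes that passed the expression filter, 20.2% were called upregulated (adjusted p under 0.05 and log2 fold change over 1) and 8.18% downregulated (log2 fold change under -1). Without a minimum fold change, 64.3% had an adjusted p under 0.05, 32.9% as higher and 31.4% as lower. The normalized values of the treatments did not overlap in 66.5% of the genes tested. Of 13 chondrocyte markers, 9 passed the filter and all 9 were higher after treatment, with a summed level from 118.8 to 145.6 CPM (counts scaled to a common library size by TMM, the trimmed mean of M values) with DMSO and from 280.2 to 318.0 CPM with mocetinostat. *COL9A1*, *COL11A1*, *PRG4*, and *SOX6* did not pass the filter. Of 5 epithelial markers, 4 were tested and all 4 were higher, with a sum between 899.7 and 1083 CPM with DMSO and between 1936 and 1989 CPM with mocetinostat. Of 4 endothelial markers, 3 were higher, with a sum between 5.07 and 7.70 CPM and between 39.0 and 45.6 CPM. The 5 leukocyte markers summed to between 1.62 and 2.71 CPM with DMSO and between 4.76 and 11.2 CPM with mocetinostat, *CD3E* was at 0 in every sample, and 1 of the 5, *CD14*, was tested and higher. Of 8 fibroblast markers, 7 were tested, 4 were higher, and 3 were lower, and all 8 summed to between 4767 and 5731 CPM with DMSO and between 4369 and 4761 CPM with mocetinostat. Single genes made up most of several sums. With DMSO, the mean was 106.4 CPM for *SOX9* among the chondrocyte markers and 4544 CPM for *COL1A1* among the fibroblast markers. Among the epithelial markers it was 565.4 CPM for *KRT8* and 448.1 CPM for *KRT18*. Those sums therefore mainly follow these genes and not the whole marker sets. Several markers did not reach the minimum level of the filter in every control and entered through the treated samples. Among them were *COMP*, *SOX5*, *EPCAM*, *CDH1*, *CD14*, *PECAM1*, *VWF*, *KDR*, and *PDGFRA*. That such markers were higher is in part set by the filter, and so are the counts of higher markers above. The part of the marker shifts in the results below was not tested, and in bulk RNA fewer cells of a type and less RNA per cell cannot be told apart.

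The filter kept 9 of the 10 genes and removed *ADAMTS4*. It asks for a minimum level in at least 3 samples, which the treated group alone can supply. *ADAMTS9* did not reach that level in every control and entered through the treated samples. Of the 9, 4 were called upregulated (*ADAMTS7*, *ADAMTS9*, *TIMP1*, and *TIMP3*) and 1 downregulated (*ADAMTS6*), beside 20.2% and 8.18% of all genes tested. With no minimum fold change, *TIMP2* was also higher and *ADAMTS12* lower, which made 7 of 9 past an adjusted p of 0.05, beside 64.3% of all genes. *ADAMTS1* and *ADAMTS5* did not pass. The values of the treatments did not overlap in 8 of the 9 genes, beside 66.5% of all genes. With 9 genes each one is a large share, and the counts are given as a description. The 3 TIMP genes were all higher, with a median log2 fold change of 1.35, and the 6 tested ADAMTS genes were higher in 2, lower in 2, and past no threshold in 2, with a median of -0.044, against a median of -0.0021 over all genes tested.

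**Figure D1:**
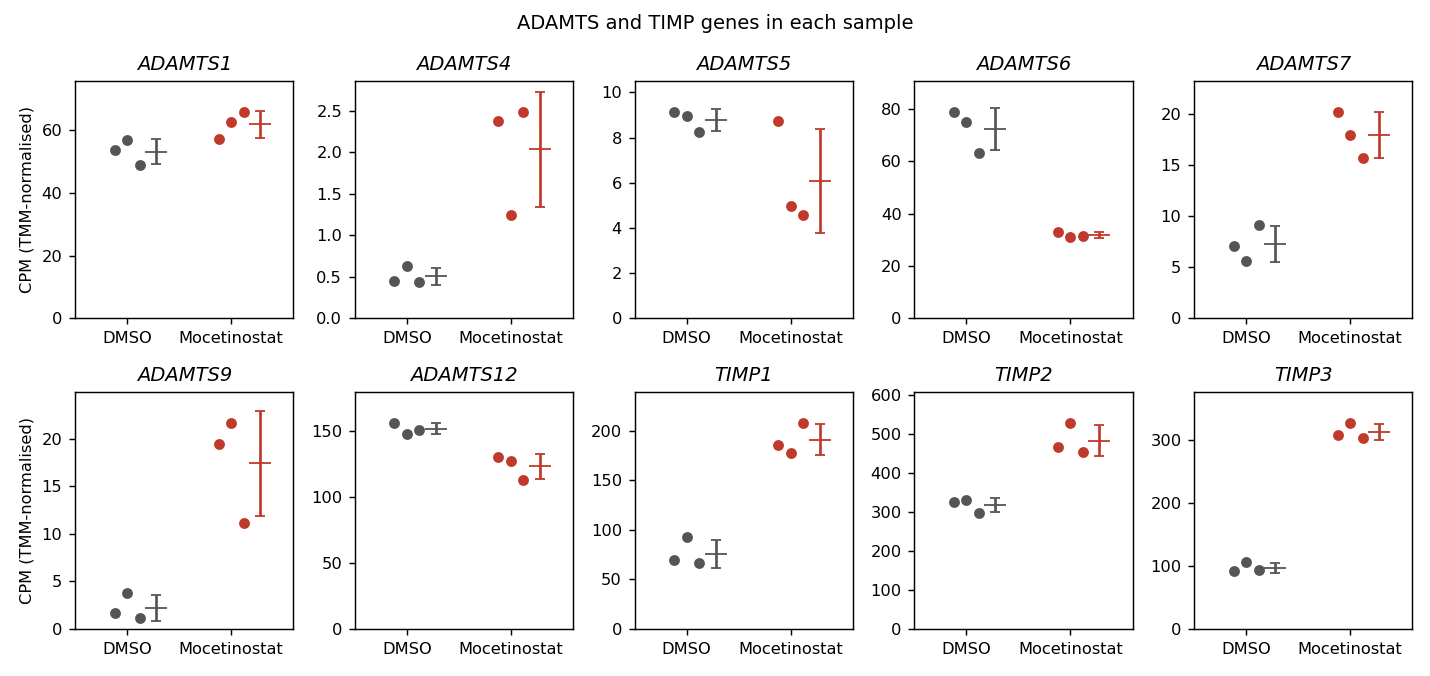
Normalized level of each gene in the 6 samples. The vertical axis gives TMM-normalized CPM from 0, each point is 1 sample, and the bar beside the points gives the mean ± SD of 3 samples. Every mocetinostat-treated sample lies above every DMSO-treated sample for the 3 *TIMP* genes, *ADAMTS1*, *ADAMTS4*, *ADAMTS7*, and *ADAMTS9*, and below for *ADAMTS6* and *ADAMTS12* (the latter turns under *GAPDH* scaling), while in *ADAMTS5* the groups overlap. *ADAMTS1* did not pass the test and turns without an expression filter, and *ADAMTS4* has few counts and was removed by the filter.

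Base composition before the start sites differed among the genes. RefSeq sequences on GRCh38.p14 were matched for 5 of the 10 genes (*ADAMTS6*, *ADAMTS7*, *ADAMTS12*, *TIMP1*, and *TIMP3*), not for *ADAMTS1*, *ADAMTS4*, *ADAMTS5*, *ADAMTS9*, and *TIMP2*. The 250 bases before the start of the downregulated *ADAMTS6* and of the upregulated *ADAMTS7* and *TIMP3* are printed, as genes called in opposite directions, from 5′ to 3′ on the strand of the gene. Capitals mark each GC box (GGGCGG, bound by SP and KLF factors) and each CACC box (CACCC, bound by KLF factors) on either strand, where neighbouring matches can touch or share a base.
*ADAMTS6*, chr5:65481921-65482170, minus strand: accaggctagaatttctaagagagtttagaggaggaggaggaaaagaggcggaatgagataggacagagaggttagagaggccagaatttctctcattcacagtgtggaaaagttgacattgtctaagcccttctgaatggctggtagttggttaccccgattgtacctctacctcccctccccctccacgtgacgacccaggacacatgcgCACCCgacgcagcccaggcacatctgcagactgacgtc
*ADAMTS7*, chr15:78811465-78811714, minus strand: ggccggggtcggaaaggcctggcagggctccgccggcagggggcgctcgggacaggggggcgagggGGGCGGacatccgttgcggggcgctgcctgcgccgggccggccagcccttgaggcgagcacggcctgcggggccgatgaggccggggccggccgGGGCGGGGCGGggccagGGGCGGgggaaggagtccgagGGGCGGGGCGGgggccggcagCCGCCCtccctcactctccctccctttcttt
*TIMP3*, chr22:32801455-32801704, plus strand: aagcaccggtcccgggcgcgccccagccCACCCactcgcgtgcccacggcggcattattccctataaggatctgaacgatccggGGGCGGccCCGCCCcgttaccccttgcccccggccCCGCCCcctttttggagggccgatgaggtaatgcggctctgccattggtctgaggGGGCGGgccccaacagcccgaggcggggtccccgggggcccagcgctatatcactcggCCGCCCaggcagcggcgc
*ADAMTS6* held 0 GC boxes and 1 CACC box in this window, *ADAMTS7* 7 and 0, *TIMP3* 5 and 1, and *TIMP1* and *ADAMTS12*, which are not printed, 2 and 5 and 1 and 4. A GC box is in 42.6% and a CACC box in 54.7% of the 35116 promoter windows of the same length. The G and C content was 52.4% in *ADAMTS6*, 80.8% in *ADAMTS7*, 68.4% in *ADAMTS12*, 64.8% in *TIMP1*, and 72.4% in *TIMP3*, with a median of 58% over all windows. In the same windows, TGANTCA (AP-1) occurred in *ADAMTS12* and in 6.57% of all windows, TGTGGT (RUNX) in *TIMP1* and in 10.98%, CACGTG (E-box) in *ADAMTS6* and in 6.34%, and TATAAA (bound by the TATA-binding protein) in 0 of the 5 and in 10.7%, counting both strands. These matches describe the letters of the windows and say nothing of binding.

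*ADAMTS4* and *ADAMTS5* encode the main aggrecanases. *ADAMTS5* (ENSG00000154736, chromosome 21 of GRCh38 from 26917922 to 26967088) was assigned 101, 43, and 56 reads in the controls (replicates 1, 2, and 3) and 44, 8, and 11 in the treated samples, in the same order as all values below. These counts correspond to 9.14, 8.95, and 8.25 CPM with DMSO and to 8.72, 4.96, and 4.56 CPM with mocetinostat. Mocetinostat replicate 1 lay within the range of the controls, and the other two lay below it. The mean was 8.78 ± 0.467 CPM with DMSO and 6.08 ± 2.30 CPM with mocetinostat (SD, n = 3). The log2 fold change was -0.41 with a 95% interval from -1.01 to 0.19, and it did not pass the test (edgeR quasi-likelihood adjusted p = 0.238). Without mocetinostat replicate 1 the log2 fold change was -0.90 (edgeR adjusted p = 0.0486), so that a single library decides whether *ADAMTS5* counts as lower. Among its other alternatives, the adjusted p was between 0.0730 and 0.712.

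*ADAMTS4* (ENSG00000158859, chromosome 1 from 161184302 to 161199054) was close to the limit of detection. It was assigned 5, 3, and 3 reads in the controls and 12, 2, and 6 in the treated samples, or 0.452, 0.625, and 0.442 CPM against 2.38, 1.24, and 2.49 CPM. The normalized values of the treatments did not overlap, but they rest on 11 counts in all with DMSO and 20 with mocetinostat. The ratio of the summed normalized counts was 4.54, with a 95% exact interval from 2.07 to 10.5 that covers counting error only. Where the gene could be fitted, its log2 fold change was 2.03 with DESeq2 (adjusted p = 0.0919) and 1.81 with edgeR without a filter (adjusted p = 0.108). It also entered 4 of the 6 fits that left out 1 sample, where the edgeR adjusted p was between 0.00621 and 0.0443, so its call depends on the filter and on the samples kept.

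*ADAMTS1*, *ADAMTS9*, and *ADAMTS12* encode further enzymes that cut matrix proteins. ADAMTS1 and ADAMTS9 cleave versican and, more weakly, aggrecan, and ADAMTS12 cleaves cartilage oligomeric matrix protein (COMP). *ADAMTS1* (ENSG00000154734, chromosome 21 from 26835755 to 26845409) is the neighbour of *ADAMTS5* on the same strand, with 72.5 kb and 0 annotated genes between them. It was assigned 594, 274, and 332 reads in the controls and 289, 101, and 159 in the treated samples. Its level was 53.7, 57.1, and 48.9 CPM with DMSO and 57.3, 62.6, and 65.9 CPM with mocetinostat, and the groups lay next to each other without overlap. The log2 fold change was 0.21 with a 95% interval from -0.044 to 0.46 (edgeR adjusted p = 0.145). Neither of these neighbours passed the test, and the alternatives moved the fold change of *ADAMTS1* from -0.043 without an expression filter to 0.74 with scaling to *GAPDH*.

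*ADAMTS9* (ENSG00000163638, chromosome 3 from 64515654 to 64688000) showed the largest fold change of the 9 tested genes. It was assigned 18, 18, and 8 reads in the controls and 98, 35, and 27 in the treated samples. The level was 1.63, 3.75, and 1.18 CPM with DMSO and 19.4, 21.7, and 11.2 CPM with mocetinostat, so that the lowest treated sample was well above the highest control. The mean rose from 2.19 ± 1.37 to 17.4 ± 5.53 CPM (SD, n = 3), an 8.58-fold change with a log2 value of 3.10 (standard error 0.34, edgeR adjusted p = 1.45e-12). It stayed upregulated in the 13 alternatives that tested it, with log2 fold changes between 2.82 and 4.12. Because its controls were low, it passed the filter through the treated samples, and its call is in part set by the filter. It was not tested where every sample had to hold 10 counts or more, and 3 of the 10 genes were then called upregulated. The antisense gene *ADAMTS9-AS1* shares 1.63% of the exon bases of *ADAMTS9* and was assigned 0, 0, and 1 reads in the controls and 1, 1, and 1 in the treated samples, and *ADAMTS9-AS2* held 5, 2, and 0 against 13, 2, and 2 counts.

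*ADAMTS12* (ENSG00000151388, chromosome 5 from 33523535 to 33892019) had the highest CPM of the 7 proteinase genes in every sample. It was assigned 1729, 710, and 1025 reads in the controls and 656, 205, and 272 in the treated samples, which gave 156.4, 147.9, and 151.1 CPM and 130.1, 127.0, and 112.7 CPM. Each treated sample was below each control sample, by a small margin. The log2 fold change was -0.30 (standard error 0.10, edgeR adjusted p = 0.00536), less than the fold threshold of the study. It did not pass with every library downsampled to the depth of the shallowest (-0.16, edgeR adjusted p = 0.209) or without mocetinostat replicate 3 (-0.25, edgeR adjusted p = 0.0503), and with each library scaled to its *GAPDH* count it turned to 0.24 (edgeR adjusted p = 0.0445).

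*ADAMTS6* and *ADAMTS7* moved in opposite directions. ADAMTS7 is best known as an enzyme that binds and cleaves COMP and for a genetic link to coronary artery disease, and ADAMTS6 is a close relative of ADAMTS10 with roles in microfibrils and cell adhesion. *ADAMTS6* (ENSG00000049192, chromosome 5 from 65148738 to 65481920) was assigned 872, 360, and 430 reads in the controls and 166, 50, and 76 in the treated samples. The level was 78.9, 75.0, and 63.4 CPM with DMSO and 32.9, 31.0, and 31.5 CPM with mocetinostat, and the treated samples lay close together far below the controls. The mean fell from 72.4 ± 8.07 to 31.8 ± 0.997 CPM (SD, n = 3), for a log2 ratio of -1.18 (standard error 0.14, edgeR adjusted p = 9.06e-12). The fold change was less than the threshold after thinning (-0.94, edgeR adjusted p = 1.99e-06) and under *GAPDH* scaling (-0.64, edgeR adjusted p = 0.000105), so that *ADAMTS6* was lower in all 14 alternatives and was called downregulated in 12 of them.

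*ADAMTS7* (ENSG00000136378, chromosome 15 from 78759206 to 78811464) was assigned 78, 27, and 62 reads in the controls and 102, 29, and 38 in the treated samples. Its level was 7.06, 5.62, and 9.14 CPM with DMSO and 20.2, 18.0, and 15.7 CPM with mocetinostat, with no overlap. The mean rose from 7.27 ± 1.77 to 18.0 ± 2.24 CPM (SD, n = 3), a 2.48-fold change with a log2 value of 1.31 (standard error 0.24, edgeR adjusted p = 3.03e-06). It was called upregulated in all 14 alternatives. Its pseudogenes *ADAMTS7P1*, *ADAMTS7P3*, and *ADAMTS7P4* held at most 4 counts in any sample, and reads shared with them were not tested, so the level of *ADAMTS7* is uncertain to that extent.

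The inhibitor genes were all higher after treatment. *TIMP3* (ENSG00000100234, chromosome 22 from 32801705 to 32863041), whose product is retained in the matrix and inhibits aggrecanases, was assigned 1016, 509, and 637 reads in the controls and 1554, 529, and 733 in the treated samples. Its level was 91.9, 106.0, and 93.9 CPM with DMSO and 308.1, 327.8, and 303.8 CPM with mocetinostat, and the gap between the groups was many times the spread within them. The mean rose from 97.3 ± 7.63 to 313.2 ± 12.8 CPM (SD, n = 3), a 3.23-fold change with a log2 value of 1.69 (standard error 0.09, edgeR adjusted p = 1.47e-27). It was upregulated in all 14 alternatives, with log2 fold changes between 1.44 and 2.22.

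*TIMP1* (ENSG00000102265, chromosome X from 47582408 to 47586789), a secreted inhibitor of most MMPs, was assigned 763, 443, and 449 reads in the controls and 938, 287, and 502 in the treated samples. The level was 69.0, 92.3, and 66.2 CPM with DMSO and 186.0, 177.9, and 208.0 CPM with mocetinostat. DMSO replicate 2 was the highest control and was still far below each treated sample. The mean rose from 75.8 ± 14.3 to 190.6 ± 15.6 CPM (SD, n = 3), a 2.54-fold change with a log2 value of 1.35 (standard error 0.10, edgeR adjusted p = 7.24e-19). It was upregulated in all 14 alternatives, with log2 fold changes between 1.09 and 1.88.

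*TIMP2* (ENSG00000035862, chromosome 17 from 78852977 to 78925387) inhibits MMPs and, in complex with MMP14, takes part in the activation of MMP2. It was assigned 3590, 1589, and 2011 reads in the controls and 2353, 853, and 1094 in the treated samples, or 324.8, 330.9, and 296.4 CPM and 466.5, 528.6, and 453.4 CPM. The treated samples were all higher. The log2 fold change was 0.60 with a 95% interval from 0.45 to 0.76 (edgeR adjusted p = 2.54e-10), which lies apart from the intervals of *TIMP1* (1.14 to 1.55) and *TIMP3* (1.51 to 1.87), although the difference between the genes was not tested. *TIMP2* passed the fold threshold under *GAPDH* scaling only, at 1.13. Exons of a gene on the same strand, *CEP295NL*, cover 3.61% of the exon bases of *TIMP2*, and it held at most 37 counts in any sample.

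*TIMP1* and *TIMP3*, but not *TIMP2*, lie inside synapsin genes of the opposite strand. *TIMP1* lies within *SYN1* and *TIMP3* within *SYN3*, with 0 exon bases in common in each pair. Synapsins coat synaptic vesicles in neurons. *SYN1* was assigned 10, 7, and 8 reads in the controls and 224, 73, and 99 in the treated samples, a log2 fold change of 5.26 (standard error 0.27, edgeR adjusted p = 1.17e-28). *SYN3* was assigned 2, 0, and 2 reads in the controls and 24, 16, and 16 in the treated samples, a ratio of 34.9 with a 95% exact interval from 12.9 to 132.7 for counting error. Host and nested gene were thus both higher after treatment. Per kilobase of exon, the mean level rose by 11.4 CPM for *SYN1* and by 79.4 CPM for *TIMP1*, and by 0.683 CPM for *SYN3* and by 47.0 CPM for *TIMP3*. The sources used here do not state whether counting used strand, so reads of unspliced host RNA that cross a TIMP exon cannot be told apart from TIMP reads, and their part in the result was not tested. *SYN2*, the host of the *TIMP4* locus, held 7 counts in all with DMSO and 17 with mocetinostat, while *TIMP4* held 0 and 2. Among 13 genes nested with, overlapping, or beside the 10, 6 were tested, 4 were higher (3 called upregulated), and 1 was lower. *MORF4L1*, which overlaps *ADAMTS7* on the opposite strand with 0 exon bases in common, was the most abundant. It had the lowest log2 fold change, at -0.49 (standard error 0.09). *N6AMT1* followed at -0.020 (standard error 0.21) and did not pass the test (edgeR adjusted p = 0.943). Next was *CEP295NL* at 0.95 (standard error 0.38).

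Levels of different genes were compared as CPM per kilobase of merged exons. The order and the shares given below depend on this choice of length. The merged exons hold 6209 bases for *TIMP2* and 1446 for *TIMP1*, whereas the longest transcripts hold 3652 and 1095. With the longest transcript as length, only the TIMP to ADAMTS ratio is reported, so the order of close neighbours such as *TIMP1* and *TIMP2* is tied to merged exons. With DMSO, *TIMP1* (52.4 ± 9.89) and *TIMP2* (51.1 ± 2.97) were the highest and overlapped with each other, followed by *TIMP3* (21.2 ± 1.66) and *ADAMTS12* (15.8 ± 0.451; mean ± SD, n = 3 for each). *ADAMTS6* (8.45 ± 0.942) and *ADAMTS1* (7.29 ± 0.560) overlapped, as did *ADAMTS7* (0.937 ± 0.228) and *ADAMTS5* (0.899 ± 0.0478). *ADAMTS9* (0.205 ± 0.128) and *ADAMTS4* (0.0490 ± 0.00992) were the lowest. The aggrecanase genes *ADAMTS4* and *ADAMTS5* thus stood low in this order without treatment. With mocetinostat the TIMP genes again held the highest levels, at 131.8 ± 10.8, 77.8 ± 6.47, and 68.1 ± 2.79 CPM per kilobase for *TIMP1*, *TIMP2*, and *TIMP3*, with no overlap between neighbours, whereas *TIMP1* and *TIMP2* had no resolved order with DMSO. *ADAMTS6* (3.71 ± 0.116) was then below *ADAMTS1* (8.48 ± 0.594), and *ADAMTS9* (1.63 ± 0.517) was above *ADAMTS5* (0.623 ± 0.235). *ADAMTS7* (2.32 ± 0.288) and *ADAMTS9* were the only neighbours in the order that overlapped with mocetinostat.

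**Figure D2:**
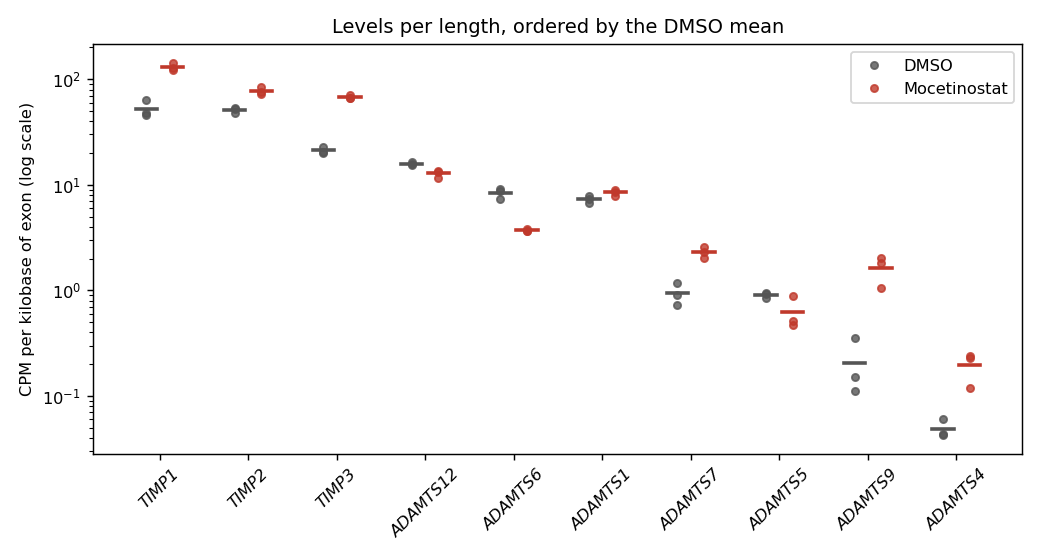
CPM per kilobase of merged exons for the 10 genes, on a log axis, ordered by the DMSO mean. Each point is 1 sample and each line a mean of 3 samples. The TIMP genes stand highest in both groups, and *ADAMTS6* and *ADAMTS9* change places with a neighbour after treatment.

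The summed level per kilobase of the 3 TIMP genes was 120.0, 140.1, and 113.9 CPM in the controls and 270.8, 279.5, and 283.0 CPM in the treated samples. That of the 7 ADAMTS genes was 34.9, 34.0, and 32.0 CPM with DMSO and 30.8, 30.4, and 28.2 CPM with mocetinostat. The TIMP sum was higher in each treated sample, also with *GAPDH* scaling. The direction of the ADAMTS sum depended on the scaling and on the genes summed. Scaled to *GAPDH*, it was 28.5 ± 0.517 CPM with DMSO and 36.4 ± 2.32 CPM with mocetinostat, and with the 12 further ADAMTS genes described below added it was 50.03 ± 1.52 and 53.6 ± 2.45 CPM (SD, n = 3). The ratio of the 3 TIMP to the 7 ADAMTS genes was 3.44, 4.12, and 3.56 with DMSO and 8.80, 9.20, and 10.03 with mocetinostat, and since both sums come from the same library the ratio does not depend on the scaling between libraries. With the 12 further ADAMTS genes added it was 2.49 ± 0.227 with DMSO and 5.19 ± 0.312 with mocetinostat (SD, n = 3). It describes RNA and not the amount or activity of protein. Within the TIMP sum, *TIMP2* held 41.2% ± 2.85 with DMSO and 28.01% ± 2.34 with mocetinostat, and *TIMP3* held 17.0% ± 0.799 and 24.5% ± 1.10 (SD, n = 3). Within the ADAMTS sum, *ADAMTS6* held 25.1% ± 1.73 with DMSO and 12.5% ± 0.563 with mocetinostat, whereas *ADAMTS7* and *ADAMTS9* together with *ADAMTS1* took larger shares after treatment. *ADAMTS5* held 2.67% ± 0.0285 and 2.08% ± 0.716, and *ADAMTS4* less than 1% in every sample (SD, n = 3).

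**Figure D3:**
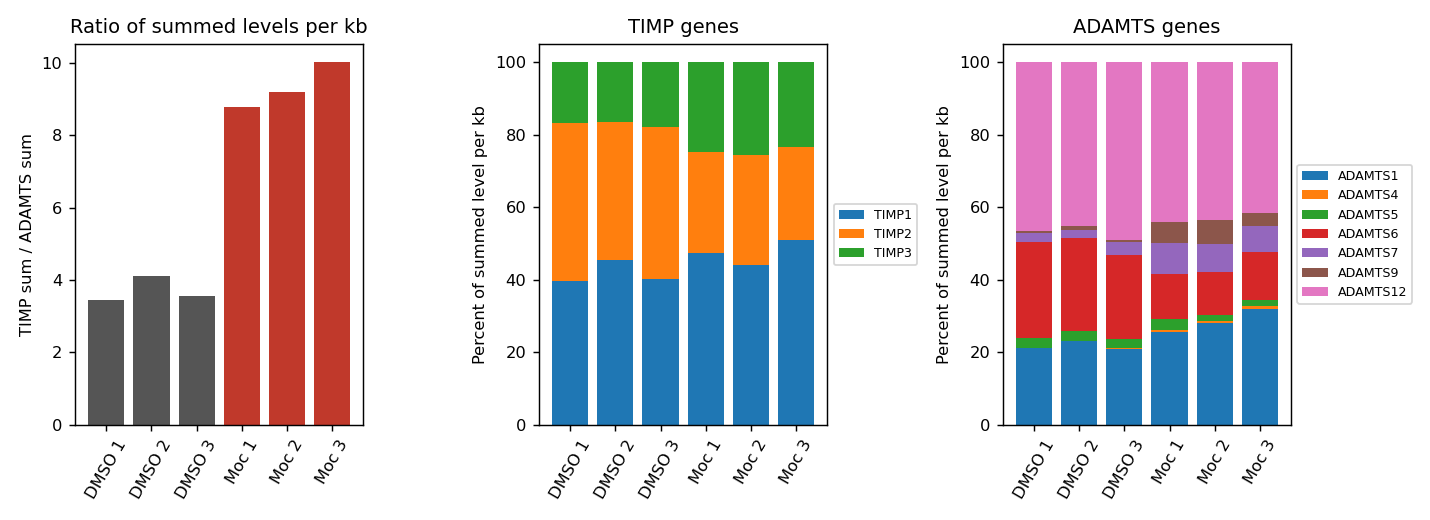
Left, ratio of the summed TIMP to the summed ADAMTS level per kilobase in each sample (Moc, mocetinostat). Middle and right, the percent of each sum held by each gene. The ratio is between 3.44 and 4.12 with DMSO and between 8.80 and 10.03 with mocetinostat, and *ADAMTS6* takes a smaller share of the ADAMTS sum in the treated samples.

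The rest of the family was taken by symbol. Of 12 further ADAMTS genes, 8 passed the filter, 7 were called upregulated, and 1 was lower. The median of their log2 fold changes was 1.74. Over all genes tested, 20.2% were called upregulated and 8.18% downregulated, here and beside the lists below. In *ADAMTS10*, *ADAMTS13*, *ADAMTS14*, and *ADAMTS17*, not every control reached the minimum level of the filter, so the controls alone would not have passed them. Their calls are in part set by the filter, as are those of genes with few DMSO counts in the other lists. *ADAMTS17* (2.63, standard error 0.39) and *ADAMTS14* (2.61, standard error 0.33) had the largest log2 fold changes. The smallest were those of *ADAMTS2*, a procollagen N-proteinase, at 1.13 (standard error 0.35), and of *ADAMTS16*. *ADAMTS16* was the most abundant of these genes and the exception in direction. It was assigned 828, 356, and 508 reads in the controls and 246, 73, and 110 in the treated samples, and went from 74.6 to 46.5 CPM, a log2 fold change of -0.67 (standard error 0.13, edgeR adjusted p = 3.36e-06). At 12.7 CPM per kilobase with DMSO, it stood between *ADAMTS12* and *ADAMTS6*. *ADAMTS8*, *ADAMTS18*, *ADAMTS19*, and *ADAMTS20* did not pass the filter. Of 7 ADAMTS-like genes found in the table, whose products lack the protease domain, 6 were tested, all 6 were higher, and 5 were called upregulated, from *PAPLN* at 0.50 and the most abundant, *THSD4*, at 1.17 to *ADAMTSL4* at 2.63 and *ADAMTSL3* at 4.41 on the log2 scale.

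Of 7 other genes listed here as metalloproteinase inhibitors, 5 passed the filter, 5 were higher, and 4 were called upregulated. Their median change was 2.02 on the log2 scale. *TFPI2*, a Kunitz-type inhibitor and the most abundant of them, rose from 59.9 to 466.7 CPM (log2 fold change 2.97, standard error 0.09, edgeR adjusted p = 2.77e-42). Whether its product inhibits metalloproteinases in these cells was not tested. *A2M*, the plasma inhibitor alpha-2-macroglobulin, changed by 3.46 on the log2 scale (standard error 0.67), from 1, 0, and 7 reads in the controls. The change was 1.29 (standard error 0.16) for the membrane-anchored inhibitor *RECK* and 0.65 (standard error 0.13) for *SPOCK1*.

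**Figure D4:**
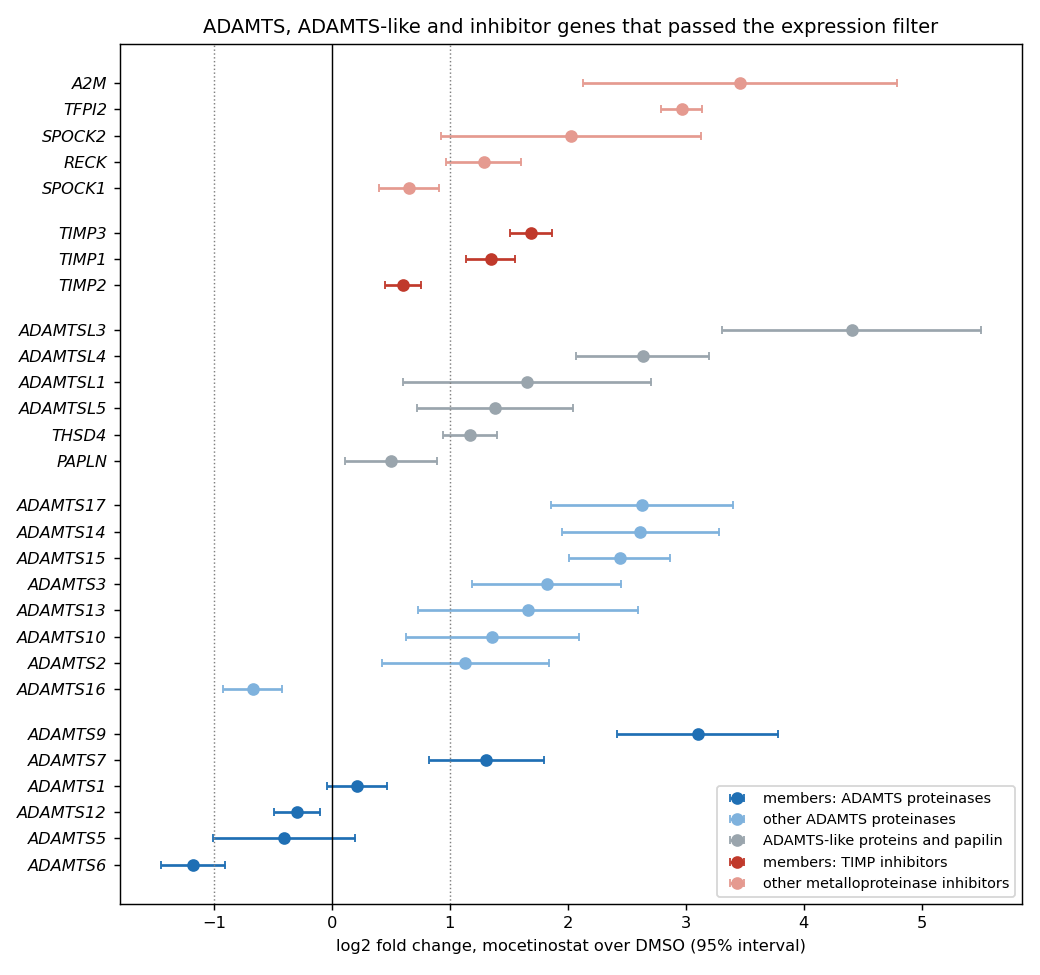
Log2 fold change of mocetinostat over DMSO with its 95% interval (edgeR) for the ADAMTS, ADAMTS-like, TIMP, and other inhibitor genes that passed the filter. Dotted lines mark log2 fold changes of -1 and 1. All genes but *ADAMTS6*, *ADAMTS5*, *ADAMTS12*, and *ADAMTS16* lie to the right of 0, and the intervals of *ADAMTS1* and *ADAMTS5* include 0.

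Of the 16 metalloproteinases that TIMPs bind, 15 were tested, 11 were higher (9 called upregulated), 3 were lower, and 1 did not pass, with 1.45 as their median on the log2 scale. The collagenase gene *MMP13* (4.39, standard error 0.18) and the membrane-type *MMP15* (2.75, standard error 0.12) had the largest log2 fold changes, and *MMP14* (-0.90, standard error 0.12) and *ADAM15* (-0.49, standard error 0.14) the smallest. *MMP1* rose from 106.4 to 401.2 CPM and was the most abundant with mocetinostat. With DMSO, *ADAM12* (203.6 CPM) and *ADAM10* (192.3 CPM) were higher than *MMP1*. Of 8 proteoglycans and other matrix proteins that ADAMTS enzymes cleave, 6 were tested, 5 were higher, 3 were called upregulated, and 1 was lower. *NCAN* held 2 counts in all with DMSO and 67 with mocetinostat (ratio 83.6, 95% exact interval from 22.3 to 704.7 for counting error), *COMP* had a log2 fold change of 3.64, *VCAN* 0.63, and *BGN* -0.74. *FN1*, the fibronectin gene and the most abundant of them, went from 16438 to 25688 CPM. *ACAN*, singled out here because it encodes aggrecan, was assigned 54, 19, and 36 reads in the controls and 146, 69, and 68 in the treated samples.

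Of 11 genes for activation, uptake, and cell-surface binding of ADAMTS enzymes and TIMPs, all 11 were tested, 5 were higher, 3 were called upregulated, and 6 did not pass. *PCSK5*, a proprotein convertase gene with 0, 0, and 8 counts in the DMSO-treated samples, changed by 5.27 on the log2 scale (standard error 0.51), and the endocytic receptor gene *LRP2* by 4.13 (standard error 0.47). *SDC4*, which encodes the syndecan that binds ADAMTS5 at the cell surface, went from 278.7 to 694.5 CPM and was the most abundant with mocetinostat. With DMSO, *ITGB1* was higher, at 453.1 CPM. *LRP1*, the receptor that clears ADAMTS5 and TIMP3, went from 137.2 to 212.4 CPM (log2 fold change 0.63, standard error 0.09), and *PCSK6* changed by 0.87 (standard error 0.29). *FURIN*, the convertase that removes the ADAMTS prodomain, was named for this role. Its log2 fold change was 0.044 (standard error 0.10, edgeR adjusted p = 0.722).

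The fold changes of the 9 tested genes were recomputed under 14 alternatives. Scaling to *GAPDH* moved all genes upward together, since *GAPDH* itself went from 3039 to 2111 CPM. The median log2 fold change of all genes tested was 0.53 under that scaling and -0.25 when no filter was applied, and changes under both are to be read against these shifts.

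**Figure D5:**
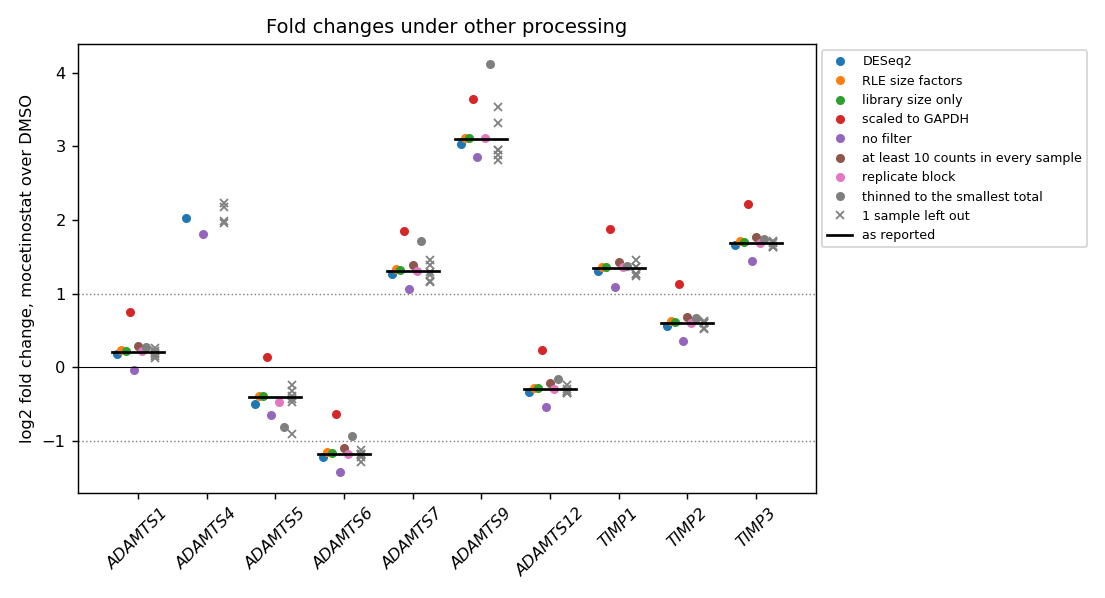
Log2 fold change of each gene as reported (black line), under 8 other ways of processing (coloured points), and with 1 sample left out (crosses). *ADAMTS4* did not pass the filter and has no line as reported, only the values of the 6 alternatives in which it was fitted. *TIMP1*, *TIMP3*, *ADAMTS7*, and *ADAMTS9* stay above 1 wherever they were tested, whereas *ADAMTS1*, *ADAMTS5*, and *ADAMTS12* lie on both sides of 0.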

How the data were processed

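RNA-Seq was performed on TC28a2 cells treated with mocetinostat or DMSO (3 samples per group, 6 in all). The authors deposited whole raw counts of reads per gene, without normalization. According to the study's methods and the labels, the authors trimmed adapters, removed ribosomal RNA reads, aligned single reads to GRCh38 (Ensembl release 98) with STAR version 2.6.1d, and assigned them to genes with featureCounts version 1.6.4; strand and the treatment of reads with several positions are not given in the sources used here.

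edgeR version 4.0.16 (limma 3.58.1, R 4.3.3) computed TMM factors, kept 13966 genes with filterByExpr (minimum count 10), and compared the treatments by quasi-likelihood F tests with treatment as the only term, adjusted over all these genes by the Benjamini-Hochberg method. Standard errors were the fold change divided by the root of F. Thresholds were those of the study. Replicates are single samples, and an exact permutation of 3 against 3 samples has 0.1 as its smallest two-sided p. Replicate pairs differed by a chi-square per degree of freedom of 1.96 to 7.19, more than sampling noise. This value cannot show that samples are independent, because separate libraries of the same RNA can also differ by more than sampling noise. Each sample was counted as a replicate because the study describes independent experiments. Positions and exon lengths are from GENCODE release 44 (GRCh38), which matched 99.5% of the identifiers. Exact intervals cover counting error only, because they pool the counts of the samples in each group and leave out the variation between samples. Reads carry no molecular identifiers, so duplicate reads were counted as separate, and the intervals may be too narrow even for counting error.

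The alternatives were DESeq2 version 1.42.0, RLE, library size only, *GAPDH* scaling, no filter, at least 10 counts in every sample, a replicate block, thinning to the smallest total, each sample left out in turn, and, for levels, the longest transcript as gene length. On simulated counts of this comparison with 200 changed genes, edgeR recovered 193 of the 195 that passed the filter among 13982 genes. Every planted change was larger than the fold threshold, genes with the fewest counts were left out, and all genes had the same spread. Far fewer genes changed than were called here. The simulation therefore does not measure the power for smaller changes, such as those of *ADAMTS1*, *ADAMTS5*, *ADAMTS12*, and *TIMP2*, or for *ADAMTS4* with its few counts. The genes and lists were chosen with earlier results of these data known. In each list, the 2 highest and 2 lowest fold changes past an adjusted p of 0.05, the most abundant gene, and genes that overlap one of the 10 were named, and others are marked. No cause was tested.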

Additional observations from a re-analysis of the deposited data

How the results depend on the processing

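Of the 9 tested genes, *TIMP1*, *TIMP3*, and *ADAMTS7* kept their call in 14 of 14 alternatives. *ADAMTS9* kept its call in the 13 that tested it and was removed by the minimum of 10 counts per sample. *ADAMTS6* was lower in 14 of 14, but 0 of the 10 genes were called downregulated after thinning and under *GAPDH* scaling. The direction turned in *ADAMTS5* (0.14) and *ADAMTS12* (0.24) under *GAPDH* scaling and in *ADAMTS1* (-0.043) without a filter, where the median of all genes moved as well. *ADAMTS1* passed an adjusted p of 0.05 under *GAPDH* scaling (edgeR adjusted p = 2.98e-06) and when every sample had to hold 10 counts or more (edgeR adjusted p = 0.0386). Over all genes, 4425 upregulated and 284 downregulated genes were called under *GAPDH* scaling, 2120 downregulated without a filter, and 1620 and 704 under the minimum of 10 counts per sample, where fewer genes were tested, against 2827 and 1142 as reported. With the longest transcript as gene length, the TIMP to ADAMTS ratio was 4.51 with DMSO and 10.5 with mocetinostat, against 3.71 and 9.34. Adding the 12 further ADAMTS genes, a choice made after seeing the data, gave ratios of 2.49 and 5.19. The log2 ratio of the ADAMTS sums, mocetinostat over DMSO, was -0.17 as reported, 0.098 with these genes, and 0.35 under *GAPDH* scaling, also added after seeing the data.

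With 1 sample left out, from 4 to 5 of the genes were called upregulated, 1 downregulated, and from 6 to 8 passed an adjusted p of 0.05. Over all genes, the ranges were 2842 to 3216 upregulated and 1173 to 1267 downregulated, and the TIMP to ADAMTS ratio was 3.50 to 3.84 with DMSO and 8.997 to 9.61 with mocetinostat. The correlation of the deviations of samples with the same replicate number was between -0.016 and 0.012, which gave no sign of pairing. Counting noise in genes of low count can hide a shared effect, so this check cannot exclude pairing. With the replicate block, 4 genes of the family were called upregulated and 1 downregulated, and 2798 and 1133 of all genes. Few counts limit *ADAMTS4*, *ADAMTS5*, *ADAMTS7*, and *ADAMTS9*, with at most 102 counts in a sample.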

Other observations

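Of 15 genes for transcription factors taken here as regulators of ADAMTS genes, 14 were tested, 9 were higher (5 called upregulated), and 3 were lower (2 called downregulated). *FOS* (log2 fold change 2.44, standard error 0.25) and *EPAS1*, which encodes HIF-2 alpha (2.02, standard error 0.08), had the largest values, and *NFKB1* (-1.77, standard error 0.15) and *RUNX2* (-1.31, standard error 0.15) the smallest. *HIF1A* was the most abundant and went from 613.2 to 971.7 CPM.

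The genes whose log2 CPM ran most nearly parallel to *TIMP3* over the 6 samples were *PAG1*, *COL4A4*, and *VLDLR*, each with a Pearson r of 1.00, and those for *ADAMTS5* were *JMJD1C*, *INO80C*, and *LBHD1*, each with an r of 0.99. These values describe 6 samples in 2 groups, where any gene with a steady difference between the treatments scores high, and 13965 genes were compared with each.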
